A study of Homo sapiens with 12 samples.

Results

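The genes described here are 3 lamins (LMNA, LMNB1, LMNB2), 5 of the proteins that sit beside them at the nuclear envelope (LBR, TMPO, EMD, SUN1, SUN2) and 2 high mobility group box proteins (HMGB1, HMGB2). They were chosen by name, as 10 of the 59251 genes in the count table, and all 10 were among the 13318 genes with enough counts to be tested. RNA-Seq was performed on HL60, a line of immature human myeloid cells from an acute leukemia that lacks the PML-RARA fusion. Of the 12 libraries, 3 were from non-treated cells, 3 from cells given 1 µM ATRA (all-trans retinoic acid), 3 from cells given 1 µM palbociclib, which inhibits CDK4 and CDK6 (CDK4/6i), and 3 from cells given both (CDK4/6i+ATRA), each for 48 h. The comparisons address how each drug, and the pair of them, changed gene expression in this line, which is a single model of the disease.

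Lamins are intermediate filaments that form a meshwork, the lamina, under the inner nuclear membrane. LMNA encodes the A-type lamins, and LMNB1 and LMNB2 the B-type lamins. LBR, emerin (EMD) and some of the LAP2 proteins made from TMPO tie lamins and chromatin to the membrane. SUN1 and SUN2 join the lamina to the cytoskeleton across both nuclear membranes. HMGB1 and HMGB2 bend DNA and are abundant chromatin proteins. Loss of lamin B1 and of HMGB proteins is used as a mark of senescent cells, and LBR, a sterol reductase as well as a chromatin tether, is needed for the lobed nucleus of neutrophils.

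The libraries held 12230923 to 18679544 counts each. In CPM, the unit used throughout, counts are scaled to the size of the library and by a TMM factor per library. Without that factor, 3 counts correspond to at most 0.245 CPM. MPO, the myeloperoxidase of immature granulocytes, was high in non-treated cells (6517 ± 168 CPM, SD, n = 3), and CD33, a myeloid surface protein, was at 93.9 CPM there. MPO averaged 293 CPM with ATRA, 3469 CPM with CDK4/6i and 28.0 CPM with both drugs, and CTSG, which encodes the granule protease cathepsin G, averaged 14.0 CPM in non-treated cells and 0.623, 3.26 and 0.638 CPM in the same order. CD33 did not move with them throughout: it averaged 77.9 CPM with ATRA (lower), 118 CPM with CDK4/6i (higher) and 99.8 CPM with both drugs, where its difference did not pass the test (edgeR, adjusted p = 0.0805). Their part in the results below was not tested. ELANE, PRTN3 and AZU1, which encode other granule proteins, were listed at 0 in every library, and each is also listed on an alternate contig. All 5 myeloid differentiation markers given here (ITGAM, CD38, NCF1, CYBB, FPR1) rose with ATRA and with CDK4/6i+ATRA. With CDK4/6i alone, 4 of them rose (log2 fold change 1.39 for ITGAM, 1.40 for NCF1, 1.77 for CYBB and 2.51 for FPR1), and CD38 was at 0.08. Erythroid markers were at 0, and stromal and epithelial markers summed to at most 0.233 CPM in any library. The 4 lymphoid markers were not all near 0. They summed to 13.1 to 27.0 CPM, most of it from CD79A, a B cell receptor component, which was at 16.7 ± 1.8 CPM in non-treated cells (SD, n = 3) and at 23.7, 23.1 and 14.2 CPM in the mean with ATRA, CDK4/6i and both drugs. The 10 cell cycle genes examined, counted together, were at 3830 to 3901 CPM in non-treated cells and at 4325 to 4429 CPM with ATRA. They were at 489 to 513 CPM with CDK4/6i and at 94.2 to 96.5 CPM with CDK4/6i+ATRA. The labels call the 3 libraries of a group biological replicates, and p-values measure the spread between them. By a chi-square of their counts over genes, pairs of replicates differed by 1.85 to 6.81 per degree of freedom, with a value of 1 for sampling noise alone. The first CDK4/6i+ATRA library stood apart from the other two (4.81 and 6.81, against 2.04 between them), and so did the third non-treated library (4.19 and 4.72, against 1.85). No call of the 10 genes changed without either library, and the changes after the combination were -3.40 and -3.43 for LMNB1 without them (log2), -3.52 and -3.57 for HMGB2, and 0.89 and 0.88 for LBR. Fewer cells of a type and less RNA per cell cannot be told apart in such bulk samples.

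With CDK4/6i+ATRA, both B-type lamins, TMPO, SUN1 and both HMGB genes were lower than in non-treated cells, whereas LBR, SUN2, LMNA and EMD were higher. Thus 6 of the 10 genes fell and 4 rose, in a comparison in which 81.7% of all tested genes were called changed (40.7% lower and 41.0% higher), at an adjusted p below the threshold of 0.05 in the quasi-likelihood F test of edgeR. The median log2 fold change of the 10 genes was -1.76, against 0.02 for all tested genes. HMGB2 fell by 11.6-fold, LMNB1 by 10.5-fold, HMGB1 by 8.05-fold and TMPO by 6.04-fold. LMNB2 fell by 4.91-fold and SUN1 by 2.34-fold. The rises ranged from 1.10-fold for LMNA to 2.79-fold for SUN2. In none of the 10 genes did the CDK4/6i+ATRA libraries overlap the non-treated ones, and this held for 81.8% of all tested genes. The 2 smallest rises, of LMNA and EMD, lost their calls with no filter on low counts (adjusted p = 0.647 and 0.0995) and depended on the normalization. By library size alone, LMNA turned from 0.14 to -0.12 on the log2 scale and was called lower (adjusted p = 0.0111). EMD turned from 0.23 to -0.03 (adjusted p = 0.566), while the median of all genes moved to -0.25. Relative to that median both remained higher, at 0.12 for LMNA and 0.21 for EMD.

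**Figure D1:**
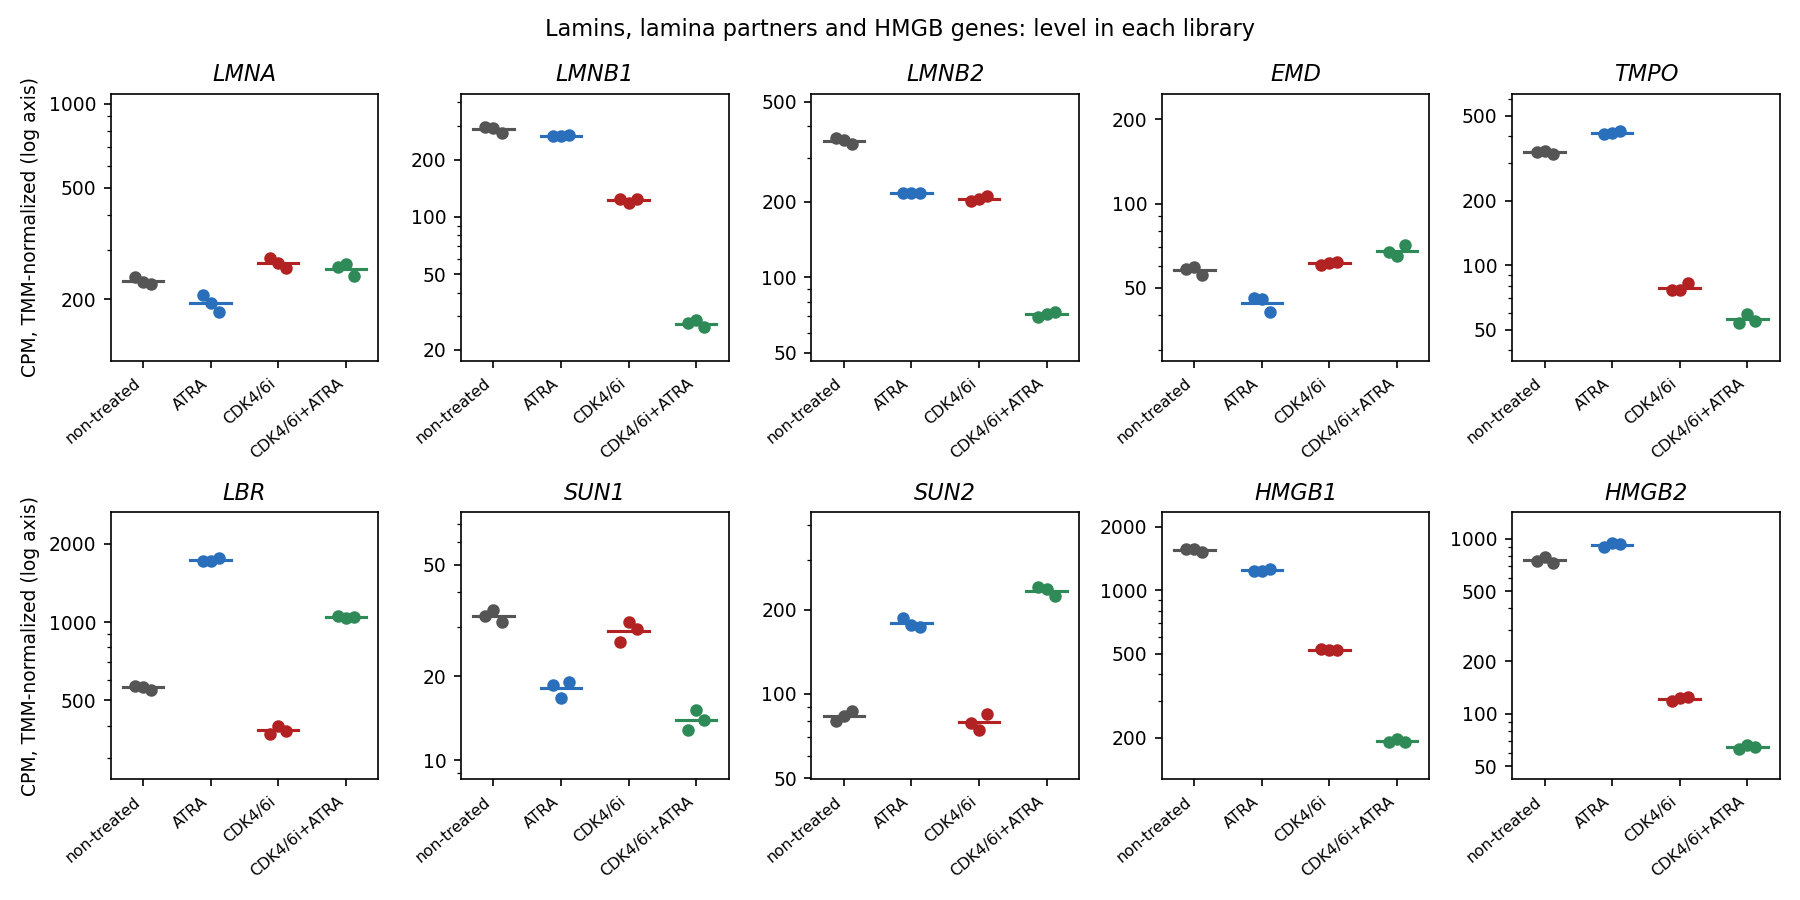
The level of each gene, in TMM-normalized CPM on a log axis, in each of the 12 libraries (points, 3 per group) with the group mean (bar). The LMNB1 libraries lie between 277 and 297 CPM in non-treated cells and between 26.3 and 28.7 CPM with CDK4/6i+ATRA, whereas all 3 LBR libraries of ATRA-treated cells lie between 1714 and 1767 CPM.

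LMNB1 (chr5:126776623-126837020, + strand, hg38) encodes lamin B1. It was at 297, 293 and 277 CPM in the 3 non-treated libraries and at 267, 268 and 269 CPM with ATRA. With CDK4/6i it was at 125, 119 and 124 CPM, and with CDK4/6i+ATRA at 27.6, 28.7 and 26.3 CPM. The 4 groups did not overlap, and the libraries of the combination lay far below all others. The fall was 2.35-fold with CDK4/6i (log2 fold change -1.24 ± 0.04, SE, adjusted p = 8.93e-32) and 10.5-fold with CDK4/6i+ATRA (-3.39 ± 0.05, adjusted p = 1.58e-46). With ATRA it was 1.08-fold (-0.11 ± 0.04, adjusted p = 0.00671), and this call was lost with DESeq2 (adjusted p = 0.0774) and under 3 other settings. On the log2 scale the fall with both drugs exceeded the sum of the falls with each drug by 2.05 (± 0.07, SE), a test of the interaction with an adjusted p of 2.00e-30.

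Over the 250 bases before and 50 bases after each annotated start in RefSeq (GRCh38.p14), 8 of the 10 genes had 16 windows, and SUN1 and HMGB2 had none in the table used. The CCAAT box, searched as CCAAT on both strands, is a common promoter element bound by the NF-Y complex. It occurred in 8 of the 16 windows and in 34.6% of all 35116 windows. The 8 windows belong to 6 genes, of which LMNB1, TMPO and HMGB1 fell with CDK4/6i+ATRA and LMNA, EMD and SUN2 rose, and LMNB2, which fell, had none. Both TMPO windows overlap and hold the same boxes. The stretch of LMNB1 that holds it (chr5:126776986-126777014, + strand) precedes the second annotated start and lies within an exon block of the gene model in the count table. It is shown, with the reversed motif in capitals, because LMNB1 was among the genes that fell most:
LMNB1: tgcctgctccccATTGGcccatggtagtc

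LMNB2 (chr19:2428166-2456959, - strand), which encodes lamin B2, fell with each drug and further with both. Its libraries were at 360, 351 and 340 CPM in non-treated cells, at 216, 216 and 216 CPM after ATRA, at 201, 205 and 211 CPM after CDK4/6i, and at 69.6, 71.6 and 72.5 CPM after the combination. The 2 single-drug groups lay close together, well below non-treated cells and well above the combination. The fall was 1.62-fold with ATRA (adjusted p = 5.52e-23), 1.70-fold with CDK4/6i (adjusted p = 2.82e-24) and 4.91-fold with CDK4/6i+ATRA (log2 fold change -2.30 ± 0.04, SE, adjusted p = 1.51e-42). The combination exceeded the sum of the single-drug falls by 0.83 (± 0.06, SE) on the log2 scale (adjusted p = 6.34e-18).

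LMNA (chr1:156082573-156140081, + strand) moved little. It was at 241, 230 and 228 CPM in non-treated cells, at 208, 194 and 181 CPM after ATRA, at 281, 270.3 and 259 CPM after CDK4/6i, and at 261, 267 and 243 CPM after the combination. ATRA libraries were the lowest and CDK4/6i libraries were mostly the highest, with an overlap between CDK4/6i and CDK4/6i+ATRA. LMNA fell 1.20-fold with ATRA (adjusted p = 4.88e-07) and rose 1.16-fold with CDK4/6i (adjusted p = 1.87e-05). Between CDK4/6i+ATRA and CDK4/6i the log2 difference was -0.07, with a 95% interval of -0.16 to 0.01 (adjusted p = 0.110). It was -0.11 without the third CDK4/6i library or without the second CDK4/6i+ATRA library (adjusted p = 0.0330 and 0.0398), -0.18 with no filter (adjusted p = 0.000366) and -0.35 by library size alone (adjusted p = 5.25e-09).

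The make-up of lamin mRNA therefore differed between the groups. Levels of different genes were compared per kilobase of exon, as shares of the 3 lamins' counts per kilobase. LMNA made up 32.5% ± 0.3 (SD, n = 3) of the total in non-treated cells, 35.4% ± 1.6 after ATRA, 51.5% ± 1.4 after CDK4/6i and 76.5% ± 0.9 after the combination. The LMNB1 share was 25.1% ± 0.3, 30.4% ± 0.9, 14.5% ± 0.3 and 5.09% ± 0.04 in the same order. The ratio of LMNA to LMNB1 per kilobase was 1.27 to 1.32 in non-treated cells, 1.08 to 1.26 after ATRA, 3.37 to 3.65 after CDK4/6i and 14.9 to 15.2 after the combination, with no overlap between any of the 4 groups. This ratio does not depend on how libraries were scaled to one another.

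**Figure D2:**
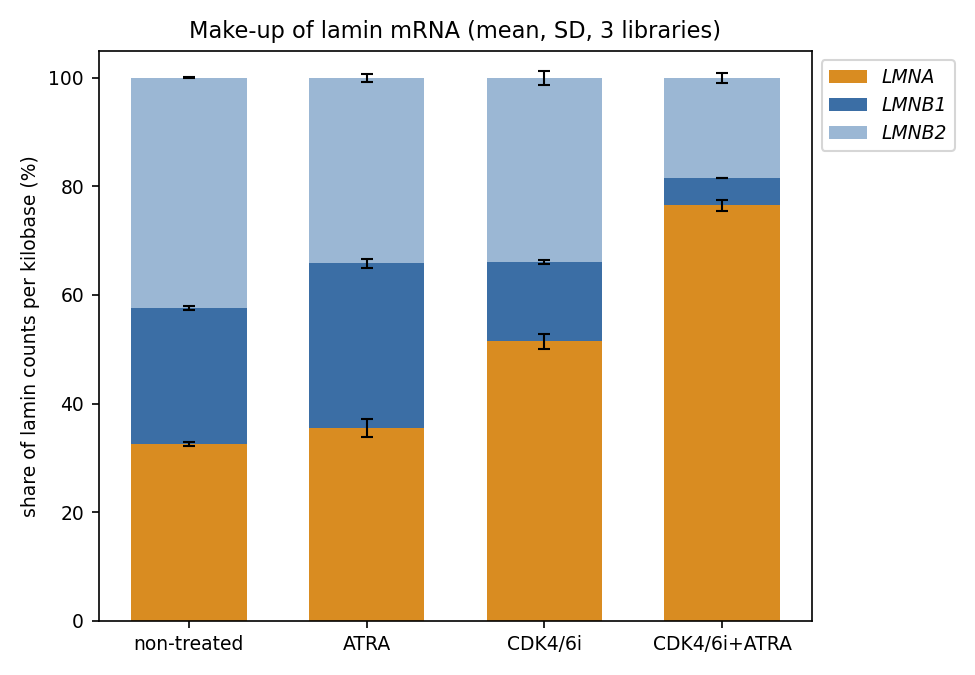
Share of each lamin gene in the lamins' summed counts per kilobase of exon, in percent, as the mean of 3 libraries per group, with black bars for the SD of the segment below them. LMNA takes 32.5% in non-treated cells and 76.5% with CDK4/6i+ATRA, while LMNB1 falls from 25.1% to 5.09%.

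TMPO (chr12:98515573-98550351, + strand) encodes the LAP2 proteins, which bind lamins and the chromatin factor BAF through a LEM domain. Its libraries were at 338, 342 and 332 CPM in non-treated cells and at 409, 414 and 424 CPM with ATRA. They were at 76.4, 76.4 and 82.9 CPM with CDK4/6i and at 53.5, 59.4 and 54.6 CPM with CDK4/6i+ATRA. The drop thus came with CDK4/6i, and ATRA alone moved TMPO the other way, without overlap between any groups. TMPO rose 1.23-fold with ATRA (adjusted p = 3.02e-10), and fell 4.29-fold with CDK4/6i (adjusted p = 3.22e-40) and 6.04-fold with CDK4/6i+ATRA (log2 fold change -2.59 ± 0.05, SE, adjusted p = 2.54e-43). TMPO-AS1, an antisense gene that shares 481 bases with TMPO, also rose with ATRA and fell with CDK4/6i. It averaged 10.5 ± 1.6 CPM (SD, n = 3) in non-treated cells, 15.5 ± 0.9 after ATRA, 0.672 ± 0.264 after CDK4/6i and 0.838 ± 0.281 after the combination. Between the last 2 groups its log2 difference was 0.31 (edgeR, adjusted p = 0.475), where that of TMPO was -0.49. The 1399 counts of TMPO-AS1 over all libraries compare with 44431 for TMPO, and strand use in counting was not stated.

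From the second annotated TMPO start, the CCAAT boxes lie at -64 and -32. The EMD window and 1 SUN2 window, of genes that rose, also hold 2 boxes each (at -224 and -115, and at -101 and -57). The 250 bases before the first annotated TMPO start (chr12:98515323-98515572, + strand) are shown because they hold the box in 2 places, marked in capitals, within 50 bases of that start:
TMPO: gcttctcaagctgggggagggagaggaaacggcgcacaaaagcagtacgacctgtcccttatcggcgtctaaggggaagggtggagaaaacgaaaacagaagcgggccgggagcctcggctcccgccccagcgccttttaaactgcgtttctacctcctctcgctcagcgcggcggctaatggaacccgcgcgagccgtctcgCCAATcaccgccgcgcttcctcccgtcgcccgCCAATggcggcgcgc

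EMD (chrX:154379295-154381523, + strand), another LEM-domain protein, was at 58.2, 59.3 and 55.6 CPM in non-treated cells, at 45.9, 45.8 and 41.2 CPM after ATRA, at 60.2, 61.4 and 61.7 CPM after CDK4/6i, and at 66.9, 64.9 and 71.2 CPM after the combination. ATRA libraries were the lowest and combination libraries the highest. EMD fell by 0.38 ± 0.05 (SE) on the log2 scale with ATRA (adjusted p = 2.72e-08). It was 1.53-fold higher in cells given both drugs than in those given ATRA alone (adjusted p = 9.73e-14). That log2 difference of 0.61 was 0.31 by library size alone. With CDK4/6i the log2 fold change was 0.08, with a 95% interval of -0.02 to 0.19 (adjusted p = 0.184).

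LBR (chr1:225401502-225428821, - strand) was highest with ATRA and lowest with CDK4/6i. Its libraries were at 569, 565 and 549 CPM in non-treated cells, at 1714, 1718 and 1767 CPM after ATRA, at 373, 399 and 381 CPM after CDK4/6i, and at 1059, 1036 and 1045 CPM after the combination. The 4 groups were far apart, and the combination lay between non-treated cells and ATRA. LBR rose 3.09-fold with ATRA (log2 fold change 1.63 ± 0.04, SE, adjusted p = 3.39e-36), fell 1.46-fold with CDK4/6i (adjusted p = 1.23e-16) and rose 1.87-fold with CDK4/6i+ATRA (0.90 ± 0.04, adjusted p = 5.29e-26). Against ATRA alone, the combination was 1.66-fold lower (adjusted p = 3.68e-22). The departure from the sum of the single-drug changes was -0.18 ± 0.06 for LBR on the log2 scale (SE, adjusted p = 0.00544). By library size alone it was -0.50, while the median of all genes was -0.34. Relative to that median it was -0.16.

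The LBR window held no CCAAT box. It held AGGTCA, a core motif of the sites that nuclear receptors such as the retinoic acid receptors bind, which occurred on either strand in 13.8% of all windows and in 1 of the 16 windows here. The motif was searched for after the values had been seen. The 30 bases around the LBR start (chr1:225428817-225428846, - strand) are shown because LBR rose most with ATRA among the 10 genes. The capitals mark the motif, and its last base is the first base of the gene:
LBR: aaaccaggcttgtaggttgcAGGTCAagtt

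With ATRA, alone or with CDK4/6i, SUN1 (chr7:815557-874934, + strand) and SUN2 (chr22:38734734-38755998, - strand) moved in opposite directions. SUN1 was at 32.8, 34.4 and 31.3 CPM in non-treated cells, at 18.6, 16.7 and 19.1 CPM after ATRA, at 26.4, 31.3 and 29.5 CPM after CDK4/6i, and at 12.8, 15.2 and 14.0 CPM after the combination. SUN2 was at 80.2, 83.5 and 87.2 CPM in non-treated cells, at 186, 176 and 173 CPM after ATRA, at 78.8, 74.3 and 85.0 CPM after CDK4/6i, and at 241, 237 and 223 CPM after the combination. In both genes the 2 groups given ATRA lay apart from the 2 groups without it, and CDK4/6i libraries overlapped the non-treated ones.

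SUN1 fell 1.81-fold with ATRA (log2 fold change -0.85 ± 0.08, SE, adjusted p = 1.24e-13) and 2.34-fold with CDK4/6i+ATRA (-1.23 ± 0.09, adjusted p = 1.36e-17). Its smaller fall with CDK4/6i (-0.18 ± 0.07, adjusted p = 0.0359) lost its call under 7 settings, among them DESeq2 (adjusted p = 0.146), and leaving out the first or second non-treated library (0.0749 and 0.148) or the first or the third CDK4/6i library (0.231 and 0.0563). SUN2 rose 2.14-fold with ATRA (adjusted p = 6.28e-27) and 2.79-fold with CDK4/6i+ATRA (adjusted p = 7.81e-33). For SUN2 with CDK4/6i the log2 fold change was -0.08, with a 95% interval of -0.17 to 0.02 (adjusted p = 0.184), and -0.12 without the third CDK4/6i library (adjusted p = 0.0432). The ratio of SUN1 to SUN2 per kilobase was 0.344 ± 0.026 (SD, n = 3) in non-treated cells, 0.0889 ± 0.0069 after ATRA, 0.321 ± 0.041 after CDK4/6i and 0.0523 ± 0.0051 after the combination. GTPBP1, on the opposite strand, shares 1856 bases with SUN2. It was at 68.5, 78.5, 50.7 and 67.4 CPM in the mean of the non-treated, ATRA, CDK4/6i and CDK4/6i+ATRA groups, and with both drugs its log2 fold change was -0.02 (adjusted p = 0.677).

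HMGB2 (chr4:173331376-173334358, - strand) had the largest fall of the 10 genes, both after CDK4/6i and after the combination. Its libraries were at 746, 783 and 727 CPM in non-treated cells, at 897, 948 and 932 CPM after ATRA, at 119, 123 and 124 CPM after CDK4/6i, and at 63.2, 66.1 and 64.7 CPM after the combination. As for TMPO, the order was ATRA above non-treated cells, then CDK4/6i, then both drugs, without overlap. HMGB2 rose 1.23-fold with ATRA (adjusted p = 6.33e-10). It fell 6.16-fold with CDK4/6i (log2 fold change -2.62 ± 0.04, SE, adjusted p = 5.39e-44) and 11.6-fold with CDK4/6i+ATRA (-3.54 ± 0.05, adjusted p = 9.25e-49).

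HMGB1 (chr13:30456704-30617597, - strand) was at 1571, 1569 and 1517 CPM in non-treated cells, at 1239, 1237 and 1260 CPM after ATRA, at 529, 520.0 and 523 CPM after CDK4/6i, and at 190.1, 196 and 192 CPM after the combination. It fell with each drug and the groups did not overlap, so that ATRA alone moved the 2 HMGB genes in opposite directions. The fall was 1.25-fold with ATRA (adjusted p = 2.59e-10), 2.96-fold with CDK4/6i (adjusted p = 1.02e-35) and 8.05-fold with CDK4/6i+ATRA (log2 fold change -3.01 ± 0.04, SE, adjusted p = 3.47e-47). The table lists 50 HMGB1 pseudogenes, of which 21 had counts, 4.81% of those of HMGB1 in total, and reads cannot be assigned between near-identical copies with certainty. Adding them to HMGB1 gave a log2 fold change of -3.00 with CDK4/6i+ATRA. On the log2 scale the combination exceeded the sum of the single-drug changes by 1.13 for HMGB1 and by 1.22 for HMGB2 (SE 0.06 for each).

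The window of the most upstream annotated HMGB1 start (chr13:30617548-30617847, - strand) held no CCAAT box. The 250 bases before another annotated start, inside the gene (chr13:30465937-30466186, - strand), are shown because they hold the CCAAT box in 3 places, more than any other window of these genes:
HMGB1: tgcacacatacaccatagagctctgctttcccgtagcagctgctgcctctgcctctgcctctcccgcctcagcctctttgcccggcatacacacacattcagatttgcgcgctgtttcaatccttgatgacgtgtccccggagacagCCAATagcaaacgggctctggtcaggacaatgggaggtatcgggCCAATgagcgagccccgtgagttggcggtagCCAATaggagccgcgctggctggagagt
The E2F site, searched as TTTCCCGC, TTTCGCGC, TTTGCCGC and TTTGGCGC on both strands, occurred in 3.32% of all windows and in 1 of the 16, that of LMNA. The cell cycle homology region, searched as TTTGAA and TTCGAA on both strands, occurred in 16.4% of all windows and in 3 of the 16, those of LMNB2, SUN2 and HMGB1. No match overlapped a match of another motif. These matches describe letters in a window, and no binding data were used here.

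By drug, ATRA alone raised LBR, SUN2, TMPO and HMGB2 and lowered LMNA, LMNB1, LMNB2, EMD, SUN1 and HMGB1, with 67.6% of all tested genes called changed (32.1% higher, 35.5% lower). CDK4/6i alone lowered 7 of the 10 genes and raised LMNA, with 56.2% of all genes called (28.3% higher, 27.9% lower). In CDK4/6i-treated cells the 7 that fell were LMNB1, LMNB2, LBR, TMPO, SUN1, HMGB1 and HMGB2. The SUN1 fall with CDK4/6i and the LMNB1 fall with ATRA lost their calls under several settings, among them DESeq2 (adjusted p = 0.146 and 0.0774). The medians of the 10 genes' log2 fold changes were -0.19 with ATRA and -0.66 with CDK4/6i, against -0.03 and 0.02 for all tested genes. The libraries of ATRA-treated and non-treated cells did not overlap for 10 of the 10 genes, against 70.3% of all tested genes, and those of CDK4/6i-treated cells did not for 8, against 60.7%. These comparisons share the non-treated libraries and are set side by side only. The 10 cell cycle genes moved with the falls: all 10 were lower after CDK4/6i (median log2 fold change -3.87) and after the combination (-5.58). With ATRA alone, 5 of them rose, MKI67 by 0.63 and TOP2A by 0.52 on the log2 scale, and 4 fell. Their part in the changes of LMNB1, TMPO, HMGB1 and HMGB2 was not tested.

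**Figure D3:**
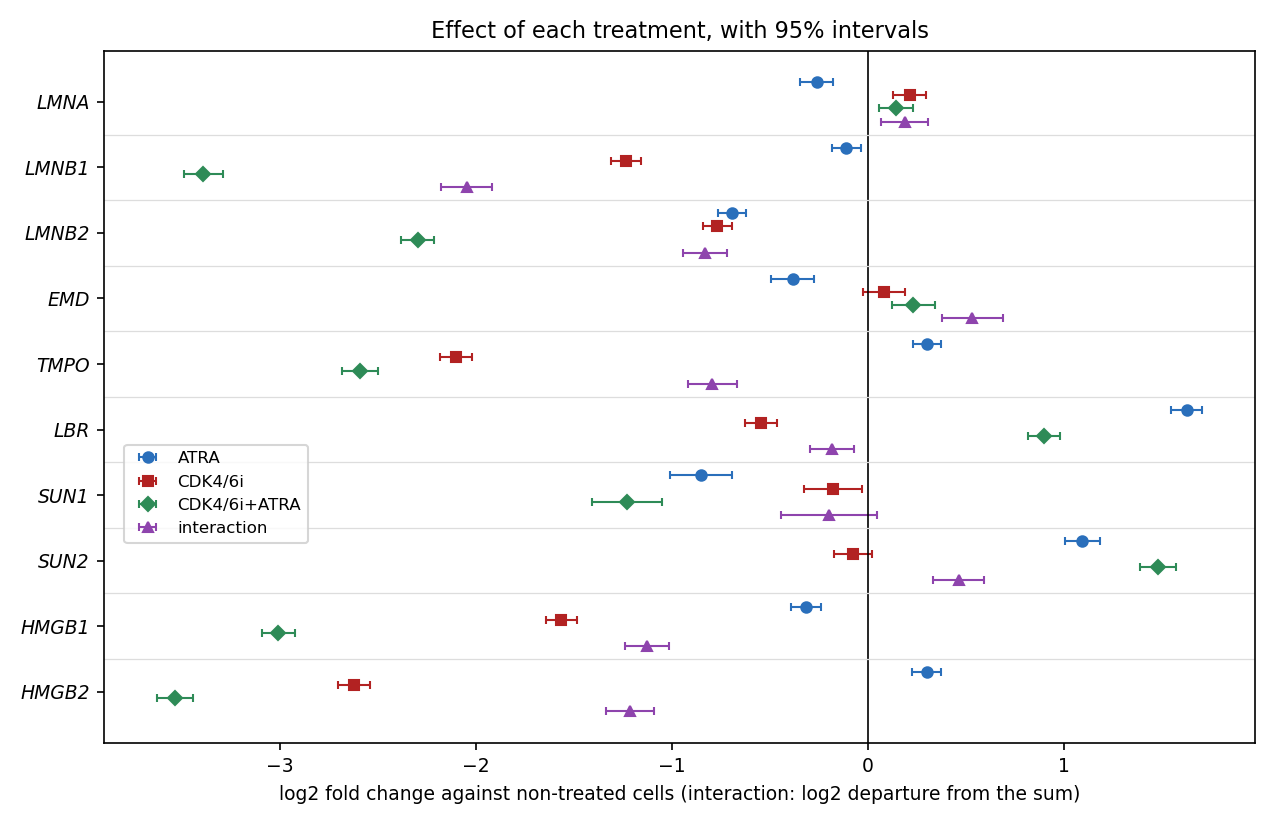
Log2 fold change of each gene with each treatment against non-treated cells, and of the interaction, which is the departure of the combination from the sum of both single-drug changes (points), with 95% intervals (bars). LMNB1 has the lowest interaction, at -2.05, and LBR the highest change with ATRA, at 1.63.

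Adding ATRA to CDK4/6i lowered 6 of the 10 genes further and raised 3, where 78.6% of all tested genes were called (39.5% lower, 39.1% higher, against a share of 36.7% higher among called genes by library size alone in place of 49.8%). The libraries did not overlap for 9 of the 10 genes, LMNA being the exception, and for 78.9% of all tested genes. LMNB1 fell 4.46-fold between CDK4/6i and CDK4/6i+ATRA (adjusted p = 1.08e-36), LMNB2 2.89-fold and HMGB1 2.72-fold. HMGB2 and TMPO, already low with CDK4/6i, fell 1.89-fold and 1.41-fold. SUN2 and LBR were 2.94-fold and 2.72-fold higher with the combination. EMD was 1.11-fold higher (adjusted p = 0.0120). By library size alone this turned to a log2 difference of -0.13, called lower (adjusted p = 0.0313). The call of a rise was lost with DESeq2 (adjusted p = 0.0526), with no filter (adjusted p = 0.587) and without the third CDK4/6i+ATRA library (0.11, adjusted p = 0.110).

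Adding CDK4/6i to ATRA lowered 7 of the 10 genes and raised 3, where 69.8% of all genes were called (32.8% lower, 36.9% higher). The libraries did not overlap for 10 of the 10 genes and for 71.9% of all genes. Among the called genes, 53.0% were higher, and 31.6% by library size alone. HMGB2 was 14.3-fold lower than with ATRA alone, LMNB1 9.74-fold, TMPO 7.44-fold and HMGB1 6.46-fold. LMNA and SUN2 were 1.32-fold and 1.31-fold higher, and neither call held by library size alone (adjusted p = 0.0510 and 0.115).

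The interaction was called for 9 of the 10 genes, 6 negative and 3 positive, where it was called for 51.4% of all tested genes (27.0% negative, 24.5% positive). Of all called interactions 47.5% were positive, and 18.5% by library size alone. The negative ones were those of LMNB1, HMGB2, HMGB1, LMNB2, TMPO and LBR. The positive ones were those of EMD (0.53 ± 0.08, SE), SUN2 (0.46 ± 0.06) and LMNA (0.19 ± 0.06), and by library size alone LMNA turned to -0.13 while EMD and SUN2 were at 0.21 and 0.15 (adjusted p = 0.0788 for SUN2). The LMNA call was also lost with DESeq2 (adjusted p = 0.0836), with no filter (adjusted p = 0.331) and without the third ATRA library (adjusted p = 0.0755). The interaction of SUN1 was -0.20, with a 95% interval of -0.44 to 0.05 (adjusted p = 0.177), and -0.52 by library size alone (adjusted p = 0.000508).

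Ordered by counts per kilobase, HMGB2 was the highest of the 10 genes in non-treated cells (480 ± 18 CPM per kilobase, SD, n = 3), followed by HMGB1, LBR, LMNB2, LMNA, TMPO, EMD, LMNB1, SUN2 and SUN1. EMD and LMNB1 overlapped in that order, and all other neighbours did not. With ATRA the order was HMGB2, LBR, HMGB1, TMPO, LMNA, LMNB2, LMNB1, EMD, SUN2 and SUN1, with an overlap between LMNA and LMNB2. With CDK4/6i it was LBR, HMGB2, LMNA, HMGB1, EMD, LMNB2, LMNB1, SUN2, TMPO and SUN1. With CDK4/6i+ATRA, LBR led at 236 ± 3 CPM per kilobase, followed by LMNA, EMD, HMGB2, SUN2, HMGB1, LMNB2, TMPO, LMNB1 and SUN1, and no neighbours overlapped in the last 2 orders. SUN1 was the lowest in every group. Lengths are those of all merged exons, so that a gene with exons unused in these cells is placed too low.

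Other genes of the nuclear envelope and of chromatin were examined beside these. Of 40 such genes in 7 lists, 35 were tested, and with CDK4/6i+ATRA 12 rose, 21 fell and 2 did not pass the test, with a median log2 fold change of -0.83 (40.7% of all tested genes were called lower and 41.0% higher). The counts of each list below are to be read beside these shares. FNTB, LEMD1, SYNE4, NRM and HMGA2 had too few counts to test, and NRM, with 2 counts in all, is listed on 7 contigs. All 3 HP1 proteins, which bind methylated histone H3 and LBR, fell with CDK4/6i+ATRA. CBX1 fell by 2.08, CBX5 by 1.74 and CBX3 by 1.11 on the log2 scale. CBX1 went from 103 ± 5 CPM (SD, n = 3) in non-treated cells to 44.3 ± 1.8 with CDK4/6i and 24.3 ± 2.0 with both drugs.

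Among the other HMG proteins, 6 of 9 fell with CDK4/6i+ATRA and 3 rose. HMGB3, the third expressed HMGB gene, fell by 3.86 on the log2 scale, from 102 ± 1 CPM in non-treated cells to 29.8 ± 2.7 with CDK4/6i and 7.05 ± 1.02 with both drugs (SD, n = 3). The nucleosome-binding proteins HMGN2 and HMGN5 fell by 2.17 and 2.18, and HMGN1 and HMGN3 by 0.83 and 1.05. HMGA1, which binds AT-rich DNA, rose by 0.61.

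Of the enzymes that process the farnesylated lamins, 2 of 4 tested fell with CDK4/6i+ATRA. ICMT, which methylates the processed end, fell by 2.12 on the log2 scale and the protease RCE1 by 0.19. FNTA, a farnesyltransferase subunit, rose by 0.15, and the prelamin A protease ZMPSTE24 was at -0.05 (adjusted p above the threshold). Of the LEM-domain proteins and their partner BAF, 3 of 5 rose and 2 fell. LEMD2, LEMD3 and ANKLE2 rose by 0.41, 0.65 and 0.28, whereas ANKLE1 fell by 3.06 and BANF1, which encodes BAF, by 0.99.

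Of 8 nesprin and torsin genes, 7 were tested, of which 4 rose with CDK4/6i+ATRA, 2 fell and 1 was not called (median log2 fold change 0.68, against 0.02 for all tested genes). The nesprins, which SUN proteins hold in the outer nuclear membrane, differed among themselves. With CDK4/6i+ATRA, SYNE1 rose by 2.53 on the log2 scale, from 2.39 ± 0.61 CPM in non-treated cells to 14.0 ± 1.2 CPM (SD, n = 3), and SYNE2 fell by 3.15, from 14.6 ± 2.5 to 1.64 ± 0.43 CPM. SYNE3 fell by 1.74. In ATRA-treated cells SYNE1 and SYNE2 were already at 10.4 ± 0.8 and 3.86 ± 0.67 CPM. The luminal ATPases TOR1A and TOR1B rose by 0.81 and 1.03, and their cofactor TOR1AIP1, also known as LAP1, by 0.68. The other torsin cofactor, TOR1AIP2, was at 0.06 on that scale and did not pass the test (edgeR, adjusted p = 0.258).

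Of 5 other genes tested for proteins of the inner nuclear membrane or the lamina, 4 fell after the combination. The log2 fold change was -3.00 for TMEM201, -2.55 for NEMP1, -1.61 for TMEM38A and -0.44 for PRR14, a tether between the lamina and HP1 that does not span the membrane, and TMEM43 rose by 0.21. TMEM38A was near the floor, at 1.44 ± 0.28 CPM in non-treated cells (SD, n = 3) and with 4 to 7 counts per library after the combination. Of the sterol reductases of cholesterol synthesis, DHCR7 and TM7SF2, which catalyses the same step as LBR, both fell with CDK4/6i+ATRA, with log2 fold changes of -1.19 and -0.66. With ATRA alone, where LBR was highest, they were at -0.24 (adjusted p = 2.28e-05) and -0.30 (adjusted p = 0.0937). With CDK4/6i, TM7SF2 was at 1.305 (adjusted p = 6.19e-12) and DHCR7 at -0.20 (adjusted p = 0.000369).

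**Figure D4:**
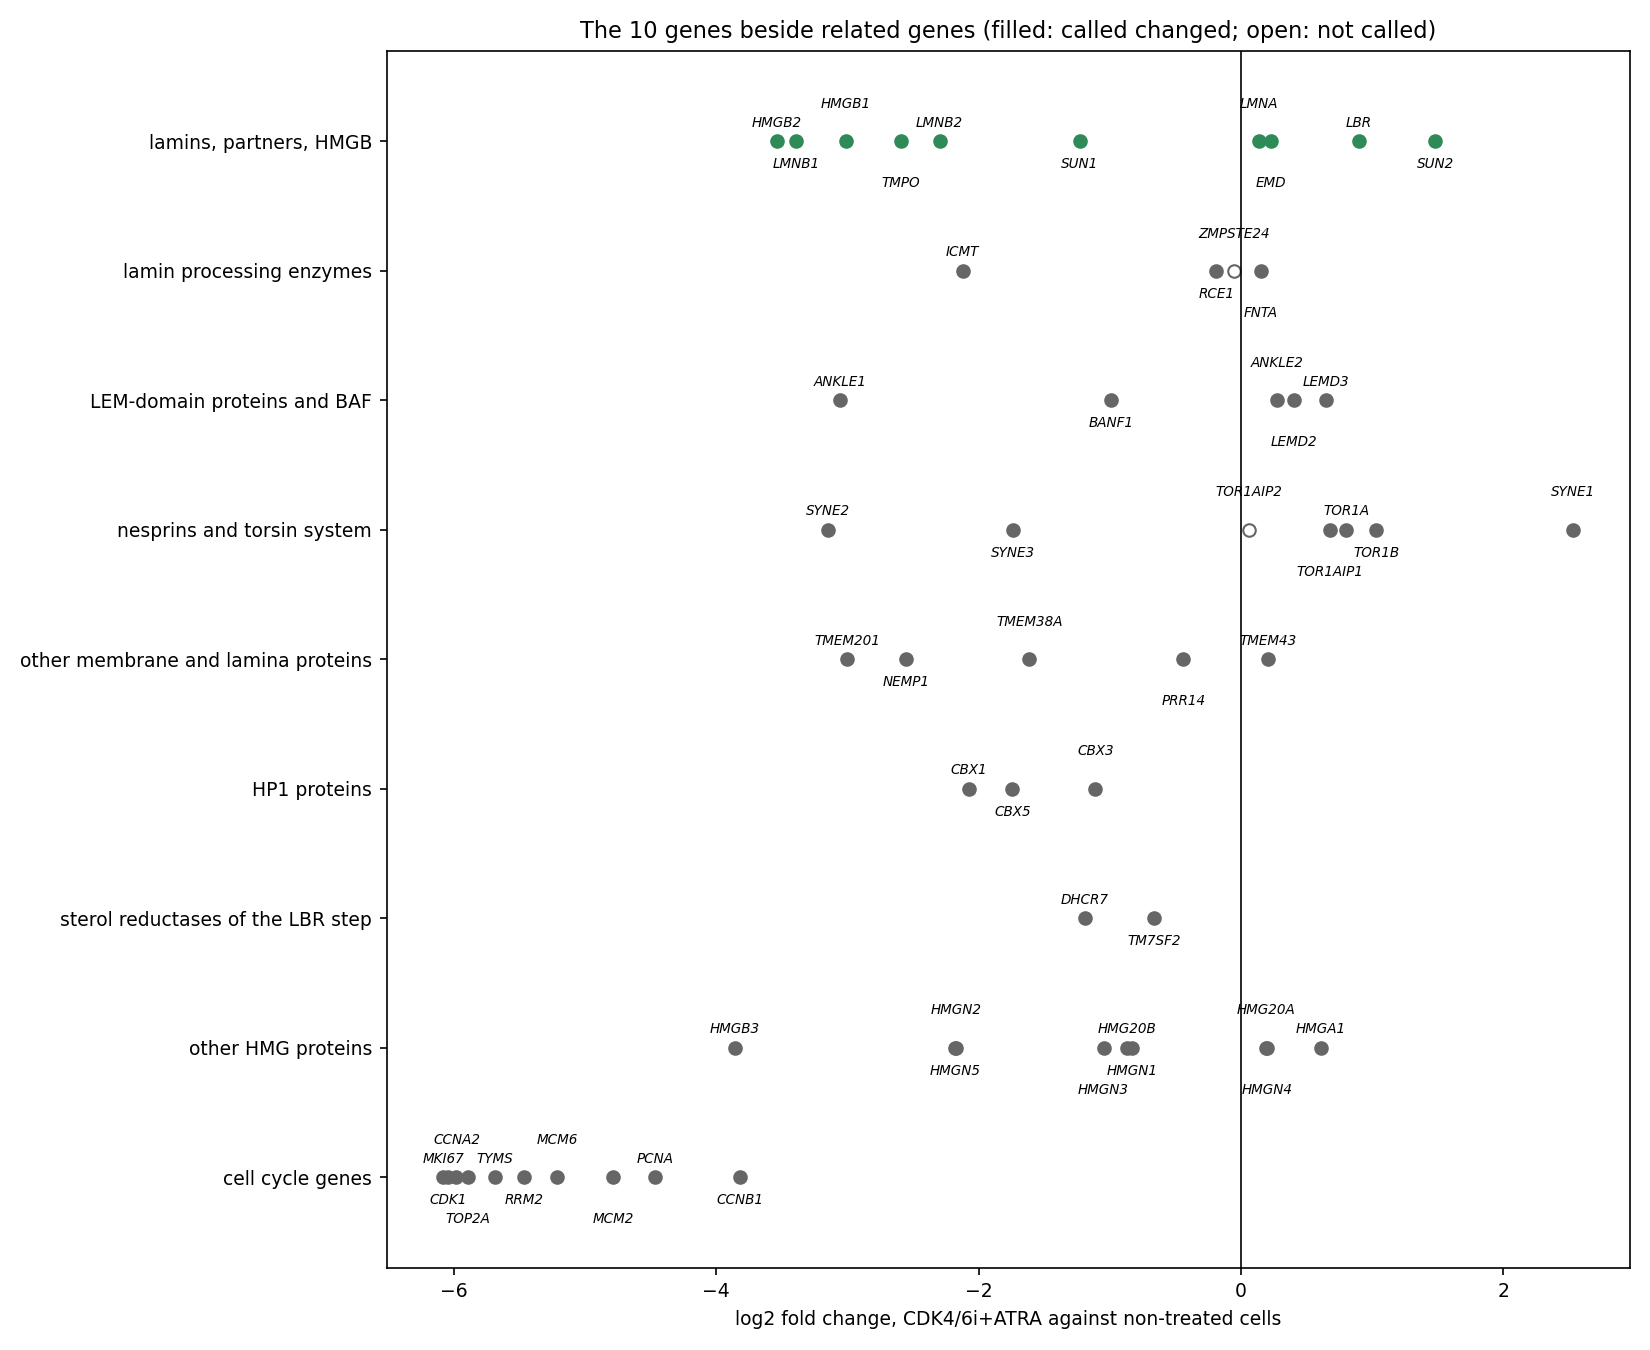
Log2 fold change between CDK4/6i+ATRA and non-treated cells for the 10 genes (green) and for the tested genes of each related list and of the cell cycle list (grey), with filled points for genes called changed and open points for the others. HMGB3 (-3.86) lies beside HMGB2 (-3.54) and LMNB1 (-3.39), and all 10 cell cycle genes lie at -3.82 or below.

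The genes whose pattern over the 12 libraries was most like that of a member were ranked by Pearson's r of log2(CPM + 1) among 9299 tested genes, as a description, since the points share 4 groups and their libraries. For LMNB1 these were LSM4, STMN1, SMC2, KNSTRN and CKAP5 (r of 0.998 or more, rounded). STMN1, a microtubule regulator, averaged 648, 518, 198 and 20.5 CPM in non-treated, ATRA, CDK4/6i and CDK4/6i+ATRA cells. For HMGB2 they were HMGN2, TK1, MELK, CENPA and CLSPN, of which TK1, a thymidine kinase, averaged 94.0, 118, 5.45 and 2.02 CPM. For LBR they were B4GALT5, ETV5, RBM38, AZIN1 and C2CD5 (r from 0.990 to 0.993), with B4GALT5 at 272, 621, 214 and 392 CPM. For LMNA they were TMEM254, CHST11, NAT9, SNHG8 and TXN2 (r from 0.946 to 0.958).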

How the data were processed

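RNA-Seq libraries of HL60 cells were made with a directional kit, and per the labels and the methods of the study reads were trimmed with Trimmomatic 0.33 and aligned with STAR 2.7.11a to hg38. The authors deposited unnormalized counts of reads per gene, together with exon positions and a merged exon length per gene. The table has the layout of featureCounts, whereas the study names RSEM, and strand use is not stated. RNA-Seq counts were used as deposited.

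The 10 genes and all lists were chosen with earlier results of these data known. Some genes of the lists are not reported here. Genes were filtered with filterByExpr (13318 kept of 59251) and TMM-scaled (edgeR 4.0.16 in R 4.3.3). All 12 libraries entered 1 model, from which quasi-likelihood F tests were taken for 5 comparisons and the interaction. P-values were adjusted by Benjamini-Hochberg over the 13318 genes and called below 0.05. Named are the 10 genes, tested genes of the lists, genes that overlap a member, and for LMNA, LMNB1, LBR and HMGB2 the 5 most alike genes by Pearson's r over log2(CPM + 1) with a mean of at least 5 CPM. GTPBP1, TMPO-AS1 and pseudogenes are given as limits on read assignment. Levels per kilobase divide CPM by the merged exon length. The alternatives were DESeq2 1.42.0, RLE size factors, library size alone, no filter, a minimum of 10 counts per library, fits of the 2 groups compared alone, a block for the replicate number, and leaving out each library. Chosen after seeing the data were the addition of pseudogene counts to HMGB1 and the search for AGGTCA. Scripts were tested on simulated data. Total counts of 12230923 to 18679544 per library set the precision, and 3 counts, the floor for detection, are 0.161 to 0.245 CPM without TMM, for counting error only. Promoter sequences are from RefSeq, GRCh38.p14, whose coordinates are those of hg38.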

Additional observations from a re-analysis of the deposited data

Results flagged for a closer look

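The effect of ATRA differed with and without CDK4/6i, by the interaction test of edgeR on the log2 scale, for 9 of the 10 genes and for 51.4% of all tested genes. The interaction was -2.05 for LMNB1 (adjusted p = 2.00e-30), -1.22 for HMGB2, -1.13 for HMGB1, -0.83 for LMNB2 and -0.79 for TMPO. For LBR it was -0.18, and -0.50 by library size alone. The interaction was 0.53 for EMD, 0.46 for SUN2 and 0.19 for LMNA (adjusted p = 0.00774). SUN2 lost its call by library size alone (0.15, adjusted p = 0.0788). LMNA lost its call with DESeq2, with no filter, by library size alone and without the third ATRA library (adjusted p = 0.0836, 0.331, 0.0731 and 0.0755). For LMNB1, ATRA changed the level by -0.11 in cells without CDK4/6i and by -2.16 in cells with it. For TMPO and HMGB2 the direction also differed, with 0.30 and 0.30 without CDK4/6i and -0.49 and -0.92 with it. For EMD, the effects of ATRA were -0.38 without and 0.15 with CDK4/6i.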

How the results depend on the processing

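By library size alone, the genes called higher numbered 2 in place of 4 after the combination, 1 in place of 3 for the combination against ATRA alone and 1 in place of 3 for the interaction, and with no filter 2 in place of 4 for the first of these. Library size alone reversed LMNA (-0.12, edgeR adjusted p = 0.0111) and EMD (-0.035) with CDK4/6i+ATRA, EMD against CDK4/6i (-0.13, edgeR adjusted p = 0.0313) and the interaction of LMNA (-0.13). TMM factors were 0.840 to 0.893 for the CDK4/6i+ATRA libraries and 1.03 to 1.07 for the others, and relative to the median of all genes each of these 4 values stayed positive. Counts of members and of all genes called stayed within 1.5 times under every other setting, and the calls of LMNB2, TMPO, HMGB1, HMGB2 and LBR held under all of them. Of LMNB1, only the call with ATRA was lost, and the causes of lost calls were not tested. The fit with the replicate number as a block called 10824 genes with CDK4/6i+ATRA against 10885 without it and changed no call of the 10 genes. Libraries with the same number did not deviate together (correlations of -0.114 to 0.0702 over 18 pairs, against -0.0988 to 0.0946 over 36 pairs with different numbers). Standard errors of the log2 changes ranged from 0.04 to 0.12 over the 10 genes, and SUN1, with 4589 counts in all, had the largest.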
